A study of Mus musculus with 12 samples.

Results

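DNA methylation of cytosines in CpG pairs is written, copied, read and removed by a small group of nuclear proteins, and 9 of their genes were followed in the livers of adult mice: Dnmt1, Uhrf1, Dnmt3a, Dnmt3b, Tet1, Tet2, Tet3, Tdg and Mbd2. They were taken by gene symbol for their roles in methylation. They are 9 of the 52636 genes counted in the files, and 8 of them passed the filter of a mean of at least 12 reads per library, as did 12453 genes in all. Tet1, with a mean of 7.92 reads, did not pass. None of the 8 was a differentially expressed gene (DEG) between the diet groups in edgeR, which called 0.0402% of all tested genes. DESeq2 called Uhrf1 alone, and 2.04% of all tested genes. Uhrf1 had the largest difference among them, 3.89 times as high in VDD-F1 as in VDS-F1 (95% confidence interval 1.54 to 9.81, edgeR adjusted p = 0.151, n = 6 per group). Uhrf1 passed the filter only through VDD-F1, with a mean of 33.5 reads against 7.83 in VDS-F1.

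The methyl mark is copied after DNA replication by the maintenance enzyme Dnmt1, which Uhrf1 brings to DNA that carries the mark on the old strand alone. Dnmt3a and Dnmt3b place new marks. The Tet enzymes oxidise 5-methylcytosine, Tdg cuts out the further oxidised bases so that repair can restore plain cytosine, and Mbd2 binds methylated CpG pairs and recruits a repressive complex. The adult liver is a mostly resting organ, and Uhrf1 and Dnmt1 are known as genes that cells raise when they replicate their DNA.

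Livers of 12 male C57Bl/6J offspring aged 16 weeks were compared, 6 from mothers fed a vitamin D deficient diet (VDD-F1) and 6 from mothers fed a nutrient-matched vitamin D sufficient diet (VDS-F1). The mothers ate these diets before mating and throughout pregnancy, and the deficient mothers also received calcium gluconate. All mothers ate the sufficient diet from delivery, and all offspring ate it after weaning, so that the groups differ in early exposure and not in their diet at dissection. Total RNA of the left lateral lobe was depleted of ribosomal RNA and sequenced with 1 library per mouse, and the sources do not tie the mice to litters.

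The libraries held 14275793 to 20815066 reads counted on genes, and 16432 to 18901 genes had at least 1 read. Unmapped reads made up 23.5 to 37.9% of each library. A liver weight was recorded for 7 of the 12 mice (the 3 VDD-F1 mice VDD4, VDD5 and VDD6, and the 4 VDS-F1 mice VDS3 to VDS6). The members are also given within these 7 mice and the other 5, because the number of DEGs depended on these sets. The 5 hepatocyte markers summed to between 71215 and 101606 CPM (counts per 1000000 counted reads after scaling between libraries) in every library, of which Alb (serum albumin) and Apoa1 (apolipoprotein A-I) were the most abundant, so that the defining markers of the labelled tissue were present in all. The VDD2 library stood apart: its markers of bile duct cells summed to 114.7 CPM against 23.9 to 71.7 in the other 11 libraries, its leukocyte markers to 29.5 CPM against 4.82 to 13.6, and its stellate cell markers to 488 CPM against 252 to 366. The VDS6 library stood apart in its reads, with 11.1% outside annotated genes against 2.52 to 4.94% in the others, and had the highest Dnmt3a and Tet3 and the lowest Tdg level of the 12 mice. Without VDS6 the log2-fold changes were 0.11 for Dnmt3a, 0.086 for Dnmt3b, 0.067 for Tet3 and -0.067 for Tdg, the last 3 with the opposite sign to the values over all 12 mice, and 0 members were called in edgeR. In whole tissue, fewer cells of a type and less RNA per cell cannot be told apart.

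Promoter sequence is shown for Uhrf1 and Dnmt1, the maintenance pair, because windows of theirs were the only ones among the 8 members read, all except Mbd2, to hold a word bound by E2F factors, which switch on genes of DNA replication. The 250 bases before each start that RefSeq lists (build GRCm38.p6) were read for 8 members, giving 13 windows, and both strands were searched for TTTCCCGC, TTTCGCGC, TTTGCCGC and TTTGGCGC. The Uhrf1 window lies on the plus strand at chr17:56304063-56304312, inside the gene but in no annotated exon of it, before the downstream of its 2 listed starts. The Dnmt1 stretch of 30 bases lies on the minus strand at chr9:20952824-20952853, inside an annotated exon of the gene, and comes from the window before the most downstream of its 3 listed starts. Capitals mark the matched word in both.
Uhrf1: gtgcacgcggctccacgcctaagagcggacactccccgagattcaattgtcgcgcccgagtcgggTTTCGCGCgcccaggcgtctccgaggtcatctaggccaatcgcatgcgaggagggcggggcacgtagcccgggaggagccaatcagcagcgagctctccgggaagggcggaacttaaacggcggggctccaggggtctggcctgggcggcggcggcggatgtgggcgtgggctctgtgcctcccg
Dnmt1: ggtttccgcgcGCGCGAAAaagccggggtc
In Uhrf1 the word ran from 185 to 178 bases before the start, and in Dnmt1 it matched on the opposite strand, from 219 to 212 bases before the start. Of all 32851 promoter windows of this length, 1.86% held an E2F word, as did the Uhrf1 and Dnmt1 windows above among the 13 of the members. Among the 12 proliferation genes with a window, 4 held a word. This last count is of genes, which can have several windows each, and is not on the scale of the share of windows. The Uhrf1 window held 30 CpG pairs and the Dnmt1 window 26, against a median of 6 over all windows. The Tet2 window held the most of any member with 51, and the lowest count was 2, before the most upstream Dnmt1 start. A vitamin D response element was matched in none of the 13 windows and in 0.0396% of all windows. These are matches of letters only.

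Levels of different genes were compared per kilobase of the longest coding transcript. Mbd2 was the most abundant member, with 22.4 ± 1.66 CPM per kb (mean ± SD, n = 12), and its lowest mouse exceeded the highest mouse for Tet3. Tet3 (3.57 ± 0.653 CPM per kb), Tdg (2.88 ± 0.533), Dnmt1 (2.51 ± 0.403) and Dnmt3a (2.48 ± 0.426) followed, and each overlapped with its neighbour in this order. Dnmt3a was in turn above Tet2 (1.29 ± 0.259) in all 12 mice, with ranges that did not overlap. The lowest levels were those of Dnmt3b (0.601 ± 0.285), Uhrf1 (0.322 ± 0.342) and Tet1 (0.0313 ± 0.0251), whose ranges overlapped from one to the next. With the length of all exons combined in place of the longest transcript, Dnmt1 was above Dnmt3a in 11 mice rather than 5, and Tdg was above Dnmt1 in 5 rather than 8, so that the order of these 3 neighbours depended on the length used. On the scale of CPM without length, Mbd2 lay above 76.2% of the tested genes, Dnmt1 above 50.6% and Uhrf1 above 6.29%.

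**Figure D1:**
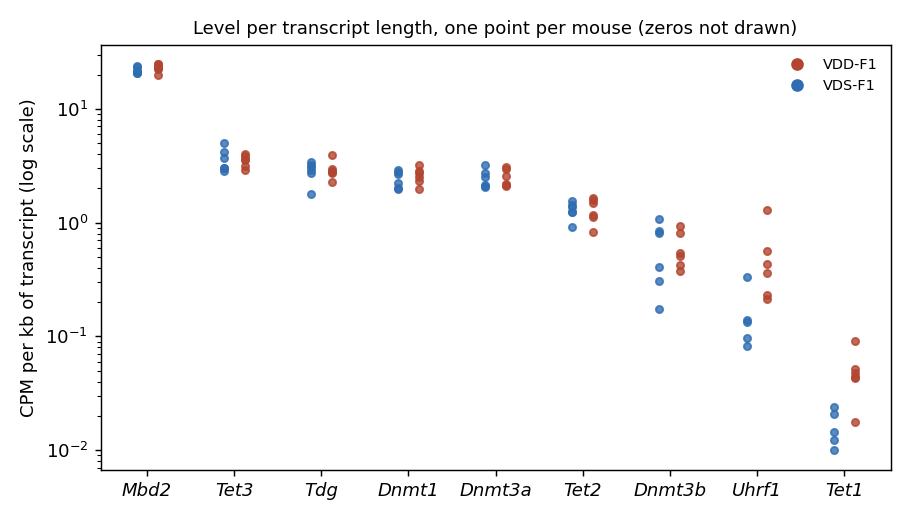
Level per transcript length of the 9 genes, in CPM per kilobase of the longest coding transcript on a log scale, with 1 point per mouse (blue VDS-F1, red VDD-F1, the libraries at 0 are not drawn). The genes run from Mbd2, with a mean of 22.4, to Tet1, with a mean of 0.0313, and the points of the groups overlap for every gene.

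Of the maintenance pair, Dnmt1, the methyltransferase, had overlapping levels in the groups. Dnmt1 (chr9:20907209-20959888, minus strand) had 11.7, 15.3 and 18.7 CPM in VDD-F1 and 11.5, 14.4 and 16.9 CPM in VDS-F1, as lowest, median and highest mouse. The groups covered almost the same range. The log2-fold change of VDD-F1 over VDS-F1 was 0.10 ± 0.14 (SE, 95% confidence interval -0.19 to 0.39, edgeR adjusted p = 0.773). The interval ended at a 1.31-fold rise.

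Uhrf1 (chr17:56303321-56323486, plus strand) is the partner that recognises hemimethylated DNA. It had 0.757, 4.59, 0.828, 1.30, 1.998 and 1.54 CPM in VDD1 to VDD6. The VDS1 to VDS6 mice had 0, 0.295, 0.481, 1.20, 0.347 and 0.501 CPM. All VDD-F1 mice except VDD1 and VDD3 were above every VDS-F1 mouse, and these 2 lay below VDS4 alone. The counts behind these levels were small, 11 to 88 reads in VDD-F1 and 0 to 23 in VDS-F1, and the 0 in VDS1 allows a level of up to 0.148 CPM (3 reads, counting error only).

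The mean Uhrf1 level was 1.84 ± 1.43 CPM in VDD-F1 and 0.470 ± 0.399 CPM in VDS-F1 (SD, n = 6 each). This was a log2-fold change of 1.96 ± 0.62 (SE, 95% confidence interval 0.62 to 3.29). The unadjusted p was 0.00705 in edgeR's quasi-likelihood test, the 579th smallest of 12453, and the adjusted p of 0.151 did not pass. The exact permutation test of the difference in log2 CPM (1.80, two-sided, n = 6 per group) gave p = 0.00649, where the smallest p that the design allows is 0.00216. DESeq2, run on the same counts, gave a log2-fold change of 1.97 and an adjusted p of 0.0414, and there Uhrf1 was a DEG. That run had DESeq2's check for outlying samples switched off, and VDD2 stood apart in its Uhrf1 level. Whether the call holds with the check on was not tested. It was the only 1 of the 8 tested members that DESeq2 called, and DESeq2 called 2.04% of all tested genes. Without VDD2, the highest mouse, the log2-fold change was 1.45 and edgeR's adjusted p 0.312. A processed pseudogene, Gm5648, matches 1590 bases of its transcript at 98.3% identity, which makes its count uncertain.

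**Figure D2:**
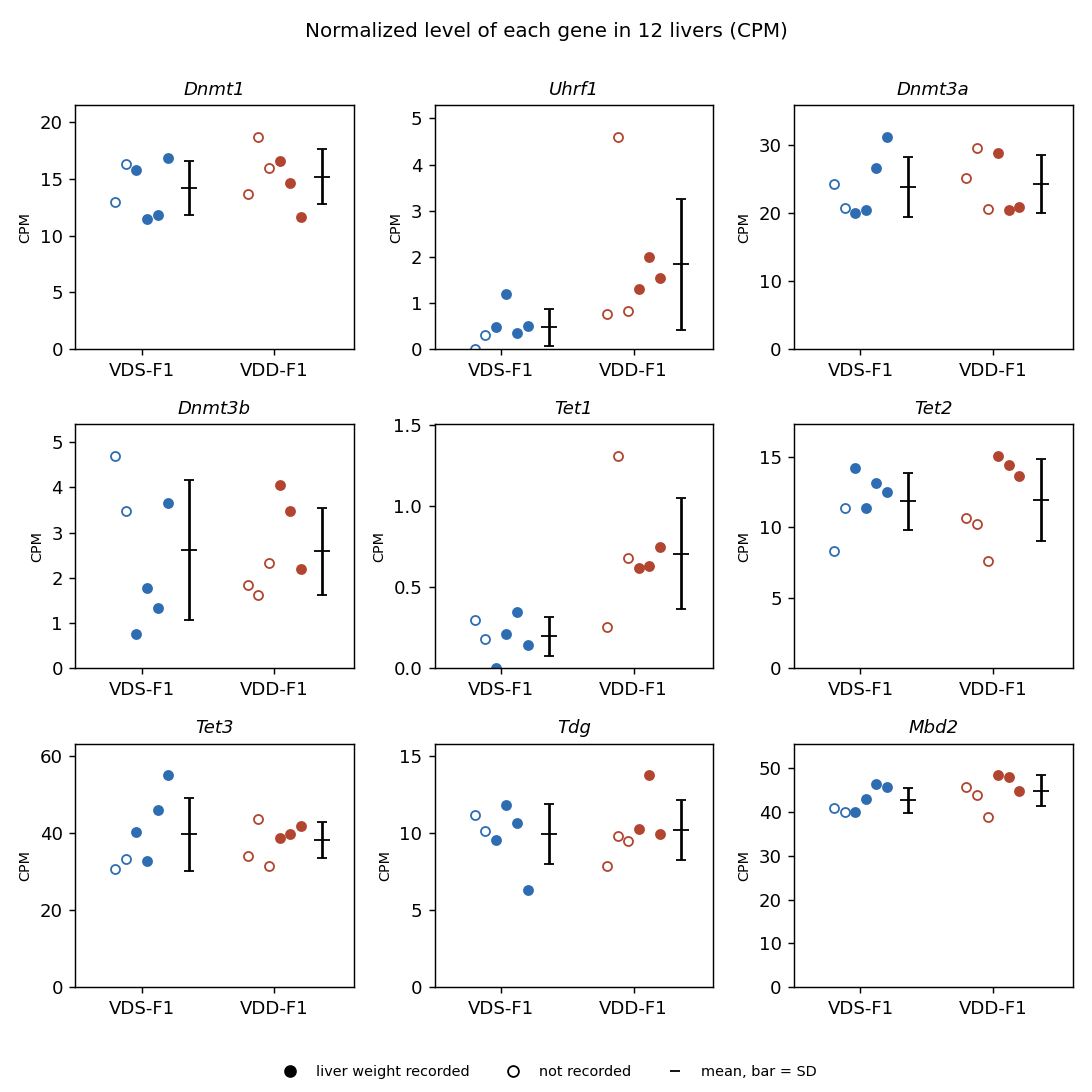
Normalised level of each of the 9 genes in CPM, 1 point per mouse, for VDS-F1 (blue) and VDD-F1 (red), with filled points for mice with a recorded liver weight and open points for the others, and the mean with its SD beside them. The Uhrf1 panel runs from 0 to 4.59 CPM with VDD2 on top, and the groups overlap in every panel.

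The de novo enzymes did not pass the test. Dnmt3a (chr12:3806007-3914443, plus strand) had 20.4, 23.0 and 29.5 CPM in VDD-F1 and 19.9, 22.5 and 31.1 CPM in VDS-F1 (lowest, median, highest). The log2-fold change was 0.02 ± 0.14 (SE, 95% confidence interval -0.27 to 0.32, edgeR adjusted p = 0.961). Dnmt3b (chr2:153649450-153687730, plus strand) was less abundant and more scattered, with 1.62, 2.26 and 4.05 CPM in VDD-F1 and 0.756, 2.62 and 4.69 CPM in VDS-F1. The VDS-F1 mice thus enclosed the whole VDD-F1 range. Its log2-fold change was -0.03 ± 0.39 (SE, 95% confidence interval -0.86 to 0.81, edgeR adjusted p = 0.987), which leaves a wide range of changes inside the interval.

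Among the Tet enzymes, Tet1 (chr10:62804570-62908996, minus strand) was near the limit of detection. The VDD1 to VDD6 libraries held 4, 25, 9, 9, 12 and 16 Tet1 reads. The VDS1 to VDS6 libraries held 6, 3, 0, 4, 5 and 2. In total these were 75 reads against 20, and all VDD-F1 mice except VDD1 had more Tet1 CPM than any VDS-F1 mouse. The mean level was 0.705 ± 0.341 CPM in VDD-F1 and 0.195 ± 0.122 CPM in VDS-F1 (SD, n = 6 each), and the 0 in VDS3 allows up to 0.206 CPM. In the exact permutation test of the difference in log2 CPM (1.41, two-sided) p was 0.00649, 1 of 9 such tests. In the edgeR fit without a filter on low counts the log2-fold change was 1.79 ± 0.58 (SE) with an adjusted p of 0.195, and Tet1 was not a DEG.

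Tet2 (chr3:133463679-133545139, minus strand) and Tet3 (chr6:83362373-83459084, minus strand), the Tet genes that the liver expressed at appreciable levels, were measured with 200.3 and 652.6 reads per library. Tet2 had 7.61, 12.1 and 15.03 CPM in VDD-F1 and 8.34, 11.96 and 14.2 CPM in VDS-F1. Tet3 had 31.4, 39.3 and 43.6 CPM in VDD-F1 and 30.7, 36.7 and 54.9 CPM in VDS-F1. The groups overlapped for both genes, and for Tet3 the VDS5 and VDS6 mice (45.8 and 54.9 CPM) were above every VDD-F1 mouse. The log2-fold changes were 0.02 ± 0.17 for Tet2 (95% confidence interval -0.35 to 0.38, edgeR adjusted p = 0.979) and -0.05 ± 0.14 for Tet3 (95% confidence interval -0.35 to 0.25, edgeR adjusted p = 0.908).

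Tdg (chr10:82629828-82650799, plus strand), the glycosylase that cuts out the further oxidised bases, had 7.89, 9.87 and 13.8 CPM in VDD-F1 and 6.30, 10.4 and 11.9 CPM in VDS-F1. Its log2-fold change was 0.03 ± 0.16 (SE, 95% confidence interval -0.31 to 0.37, edgeR adjusted p = 0.949). The processed pseudogenes Tdg-ps, Gm9855 and Gm5597 match its transcript at 98.7 to 99.3% identity, so that reads the aligner placed in several sites are missing from its count, and the Tdg level is uncertain.

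Mbd2, the reader, was the most precisely measured member. It had 38.9, 45.2 and 48.4 CPM in VDD-F1 and 39.9, 42.0 and 46.3 CPM in VDS-F1. The log2-fold change was 0.07 ± 0.08 (SE, 95% confidence interval -0.09 to 0.24, edgeR adjusted p = 0.673), and the interval ended at a 1.18-fold rise. In the exact permutation test of log2 CPM, p ran from 0.247 for Mbd2 to 0.959 for Tet2 over the 7 members other than Uhrf1 and Tet1.

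Over the 8 tested members edgeR called 0 DEGs (adjusted p below 0.05 and an absolute log2-fold change above 1), against 0.0402% of all tested genes, or 5. At an unadjusted p below 0.05, 1 member, Uhrf1, was higher in VDD-F1, against 9.55% of all tested genes, and 0 were lower, against 6.29%. A share of 1 in 8 is near the background. The log2-fold change was above 0 for 6 members and below 0 for 2, with a median of 0.03, and over all tested genes the median was 0.0041. None of the 9 members had groups that did not overlap over the 12 mice, while 0.61% of the tested genes did not overlap and were higher in VDD-F1.

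**Figure D3:**
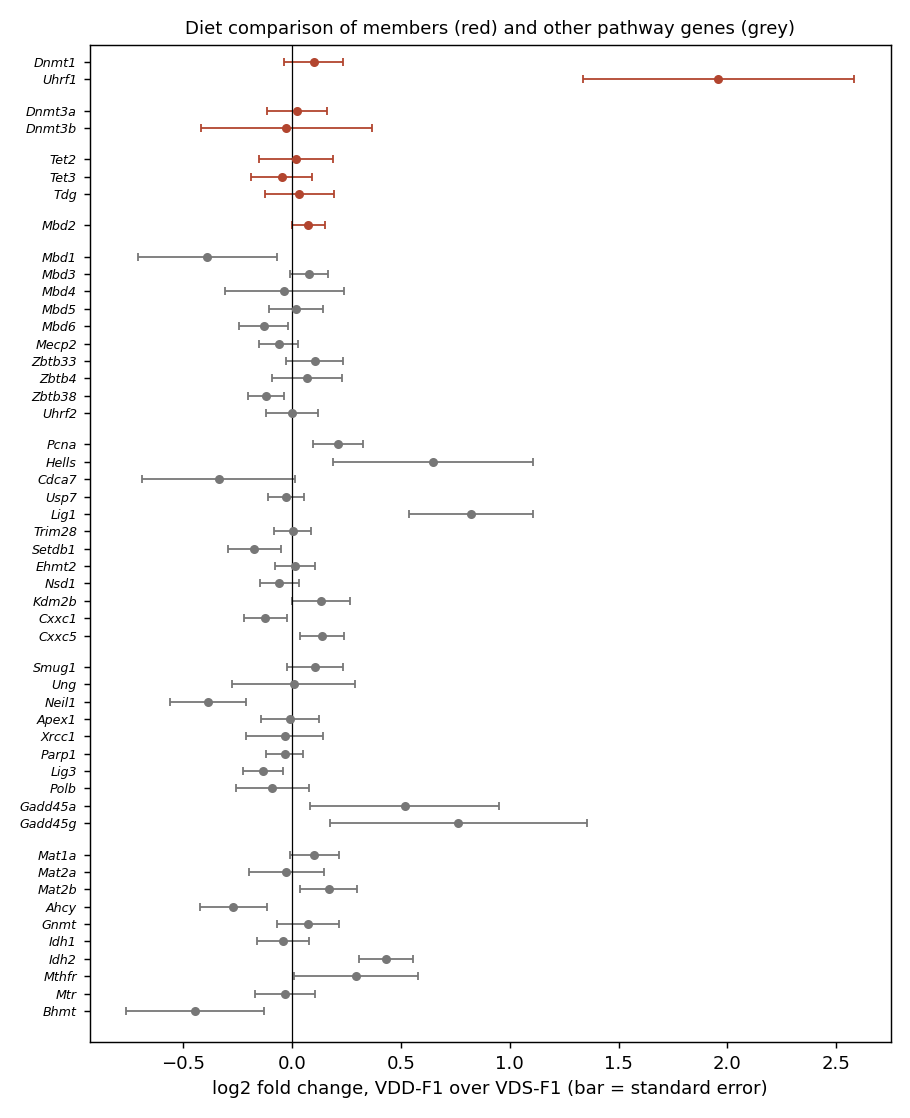
Log2-fold change of VDD-F1 over VDS-F1 with its standard error for the 8 tested members (red) and the 42 tested genes of the wider pathway (grey), in blocks by role. Uhrf1 stands at 1.96, and the other members lie between -0.05 and 0.10.

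The members were then compared within the sets of mice. In the 7 mice with a recorded liver weight, Uhrf1 was 1.30 to 1.998 CPM in VDD-F1 and 0.347 to 1.20 CPM in VDS-F1, and in the other 5 it was 0.757 to 4.59 and 0 to 0.295 CPM. The groups did not overlap in either set, which held for 1.51% of the tested genes in this direction. The log2-fold change of Uhrf1 was 1.30 ± 0.43 (SE) in the first set and 3.84 ± 1.41 in the second, where the VDS-F1 mice held 0 and 5 reads. The test of the difference between the sets gave -2.54 ± 1.33 (SE) with an edgeR adjusted p of 0.612.

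Dnmt3b is given in each set because its difference between the sets had the smallest p among the members. In the recorded set the 3 VDD-F1 mice had 4.05, 3.47 and 2.19 CPM and the 4 VDS-F1 mice 0.756, 1.77, 1.32 and 3.65 CPM, a log2-fold change of 0.78 ± 0.43 (SE). In the other set the 3 VDD-F1 mice had 1.83, 1.62 and 2.33 CPM and the 2 VDS-F1 mice 4.69 and 3.48 CPM, a log2-fold change of -1.09 ± 0.38 (SE). The groups overlapped in the first set and not in the second. The difference between the sets was 1.87 ± 0.66 on the log2 scale (unadjusted p = 0.0137, edgeR adjusted p = 0.400), and so did not pass. It was the only 1 of the 8 members with an unadjusted p below 0.05 for this term, against 9.01% of all tested genes, and 0 members passed the adjusted threshold, against 0.0883% of all tested genes. A share of 1 in 8 is again near the background. Tdg, like Dnmt3b, was lower in all 3 VDD-F1 mice than in both VDS-F1 mice of the second set and overlapped in the first. In that second set 9.5% of all tested genes did not overlap and were lower in VDD-F1. Tet1 did not overlap in the recorded set, where it was higher in VDD-F1, as were Uhrf1 and 12% of all tested genes without overlap, and it overlapped in the other set.

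**Figure D4:**
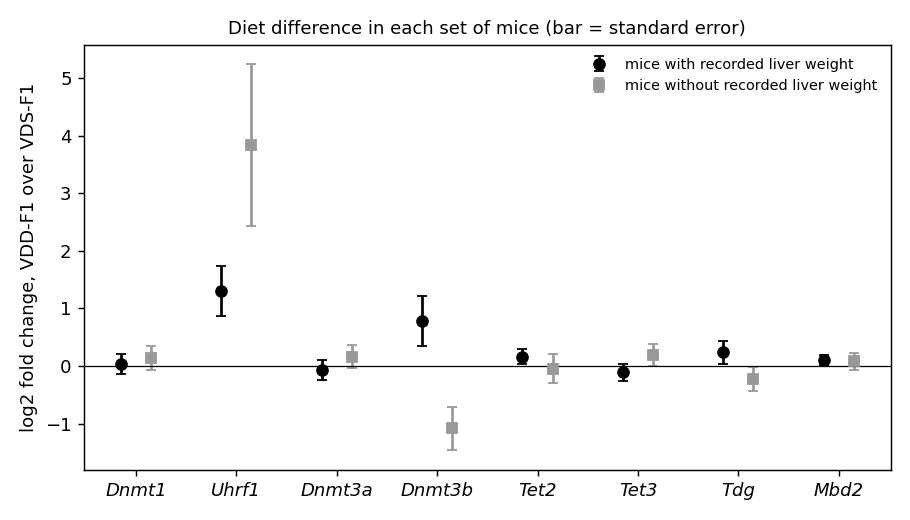
Log2-fold change of VDD-F1 over VDS-F1 with its standard error for the 8 tested members, in the 7 mice with a recorded liver weight (black circles) and the 5 without (grey squares). Dnmt3b lies at 0.78 in the first set and at -1.09 in the second, and Uhrf1 is above 0 in both.

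The genes around these enzymes were read from a list of 48 further pathway genes, of which 42 were tested. None was a DEG in edgeR or DESeq2, 2 were higher and 1 lower in VDD-F1 at an unadjusted p below 0.05, and the median log2-fold change was -0.01. These shares lie below the background given above. Of the 12 tested partners in maintenance and targeting, Lig1, the ligase that joins the fragments of newly made DNA, had 2.84 to 6.79 CPM in VDD-F1 and 1.39 to 3.28 CPM in VDS-F1, a log2-fold change of 0.82 ± 0.29 (SE, edgeR adjusted p = 0.188). Pcna, the clamp that holds Dnmt1 and other enzymes at the replication fork, had a log2-fold change of 0.21 ± 0.11 (SE, edgeR adjusted p = 0.389). The partners Dnmt3l, Dppa3, Zfp57 and Cxxc4 were below the filter, Dnmt3l with 0 reads in all 12 libraries. Total reads in VDD-F1 and VDS-F1 were 3 and 0 for Dppa3, 22 and 2 for Zfp57, and 64 and 29 for Cxxc4. The mean log2 CPM of all 16 partners, which includes these low counts, was 2.54 to 2.71 in VDD-F1 and 2.32 to 2.47 in VDS-F1. Their summed CPM overlapped, at 412 to 465 and 420 to 473. Neither difference was tested.

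Of the 10 tested genes of methyl donor and 2-oxoglutarate supply, Idh2, the mitochondrial enzyme that makes the cosubstrate of the Tet enzymes, had 73.5 to 121 CPM in VDD-F1 and 65.5 to 84.2 CPM in VDS-F1. The log2-fold change was 0.43 ± 0.12 (SE, edgeR adjusted p = 0.122), and DESeq2 gave an adjusted p of 0.0436 at a size below its fold threshold. Ahcy, which clears the by-product of methylation, had a log2-fold change of -0.27 ± 0.15 (SE, edgeR adjusted p = 0.411). Of the 10 tested base excision repair genes, Neil1, a glycosylase, had 2.84 to 3.99 CPM in VDD-F1 and 2.99 to 5.87 CPM in VDS-F1, a log2-fold change of -0.39 ± 0.18 (SE, edgeR adjusted p = 0.301). Lig3, the ligase that seals the repaired strand, had -0.13 ± 0.09 (SE, edgeR adjusted p = 0.512). All 10 other readers were tested, and the smallest p values among them were those of Zbtb38 (-0.12 ± 0.08, SE, edgeR adjusted p = 0.515) and Mbd1 (-0.39 ± 0.32, SE, edgeR adjusted p = 0.589). Their levels overlapped between the groups.

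Genes of DNA replication and mitosis were read beside Uhrf1, which is known to be raised in dividing cells. Of 14 proliferation genes, 13 were higher in VDD-F1 and 5 of them at an unadjusted p below 0.05, with a median log2-fold change of 0.51. None was a DEG in edgeR, and 3 were in DESeq2 (Mki67, Ccna2 and Ccnb1). Of the 5, Ccna2, Ccnb1 and Cdk1 had a VDS-F1 mean of 3.5 to 11.2 reads, below the minimum, and so passed the filter only through VDD-F1. The counts and the median above include these 3 genes, and are raised by them. Only Mki67 and Top2a (1.43 ± 0.49 on the log2 scale, SE) remain of the 5. Over all tested genes, the shares given above were 9.55% for a higher level at this threshold and 2.04% for a DESeq2 call. The most abundant, the helicase subunit Mcm7 and the thymidine kinase Tk1, differed by 0.13 ± 0.13 and 0.03 ± 0.19 on the log2 scale (SE), while Mki67, named because it is the best known marker of dividing cells and chosen after its values were seen, differed by 1.98 ± 0.47. Without VDD2 the difference of Mki67 was 1.20 ± 0.23, 11 of the 14 genes were higher, 4 of them at an unadjusted p below 0.05, and the median was 0.25. Of these 4, Ccna2 and Ccnb1 again passed the filter only through VDD-F1, and the median includes them and Cdk1. The mean log2 CPM of the 14 genes ran from 1.33 to 3.37 in VDD-F1 and from 1.26 to 2.02 in VDS-F1. VDD2 had the highest value, and without it the VDD-F1 range ended at 2.32.

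Within VDD-F1 the Uhrf1 level and this mean had a Pearson r of 0.950 (exact permutation p = 0.0222, n = 6) and a Spearman rho of 0.771 (exact permutation p = 0.103). Over the 18 relations of 9 genes in 2 groups, the Benjamini-Hochberg adjusted p of this r was 0.200 in the exact permutation test, and 0 relations passed. Without VDD2 and VDD3, the mice farthest from the median, r was 0.838 over 4 mice (exact permutation p = 0.333). Over the same 4 mice r was higher for Tet2 (0.977), Dnmt3b (0.934) and Tdg (0.850), and 0 of the 18 relations without the farthest mice passed after adjustment. Exact permutation over 4 mice cannot give small p values, and the smallest of the 18 was 0.0833. This 0 therefore decides nothing. Within VDS-F1, where VDS1 held 0 Uhrf1 reads, the Pearson r of Uhrf1 was 0.584 (exact permutation p = 0.192, n = 6) and the Spearman rho 0.600 (exact permutation p = 0.242). Dnmt1 had a Pearson r of 0.514 in VDD-F1 (exact permutation p = 0.269, n = 6) and 0.208 in VDS-F1 (exact permutation p = 0.694, n = 6). Uhrf1 did not stand alone. Tet3 had a Pearson r of 0.862 in VDD-F1 (exact permutation p = 0.0167, n = 6) with the same adjusted p of 0.200, a Spearman rho of 0.771 (exact permutation p = 0.103) and an r of 0.716 without VDD2 and VDD3. Tet1 had a Pearson r of -0.857 in VDS-F1 (exact permutation p = 0.0750, n = 6), a Spearman rho of -0.714 (exact permutation p = 0.136) and an r of -0.754 without VDS3 and VDS4. These libraries held only 0 to 6 Tet1 reads, with the 0 in VDS3, so that this relation is uncertain. Over all 6 mice the other relations had a Pearson r between -0.710 and 0.683. Values over 4 mice are given as a description, and the sets of mice, with 2 to 4 mice of a group each, were not correlated.

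**Figure D5:**
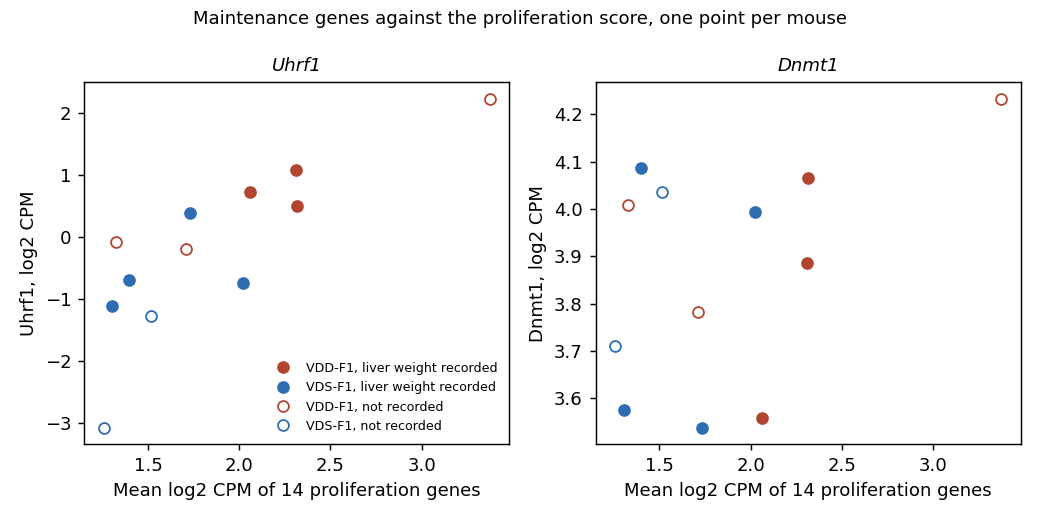
Log2 CPM of Uhrf1 (left) and Dnmt1 (right) against the mean log2 CPM of 14 proliferation genes, 1 point per mouse, red for VDD-F1 and blue for VDS-F1, filled where a liver weight was recorded. VDD2 lies at the top right of the Uhrf1 panel, at a mean of 3.37, and the Dnmt1 points are scattered.

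Markers of other liver cells are given beside Uhrf1, and their part in its difference was not tested. At an unadjusted p below 0.05, 9.55% of all tested genes were higher in VDD-F1 and 6.29% lower, and each list holds only 5 genes. Of the 5 bile duct markers, led by Spp1 and Sox9, all were higher in VDD-F1 and 3 had an unadjusted p below 0.05, with sums of 23.9 to 114.7 CPM in VDD-F1 and 27.6 to 51.0 CPM in VDS-F1. All 5 stellate cell markers, led by Reln and Dcn, were higher as well, 2 of them at an unadjusted p below 0.05, with sums of 263 to 488 and 252 to 354 CPM. Leukocyte markers, led by Ptprc and Cd3e, summed to 4.82 to 29.5 CPM in VDD-F1 and 8.16 to 12.9 CPM in VDS-F1, and the 3 of the 5 that were tested had an unadjusted p above 0.05. Of these markers, Cd3e and Ms4a1 were at 0 in 1 library each and Nkg7 in 2. Kupffer cell markers, led by Csf1r and Cd5l, summed to 120 to 307 and 167 to 311 CPM, with 4 of 5 lower in VDD-F1 and 1 of them, Clec4f, at an unadjusted p below 0.05. Endothelial markers, led by Stab2 and Kdr, summed to 177 to 210 and 172 to 233 CPM, with 1 of 5 higher and 2 lower at that threshold. Of the 5 hepatocyte markers 4 were higher, and the lower 1, Hnf4a, had an unadjusted p below 0.05. The ranges of the groups overlapped for each list.

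The genes whose log2 CPM followed a member most closely over the 12 mice are given as a description, since the mice share their diet groups and the best of 12453 genes are high by selection. For Uhrf1 they were Cidec, which coats lipid droplets (Pearson r 0.951), Bex3 (0.944) and Jpt1 (0.938), and without VDD2 and VDS1, the mice farthest from the median, these were 0.856, 0.806 and 0.815. For Dnmt1 they were Golt1a (0.882), Arhgef16 (0.870) and Fadd (0.857), and for Dnmt3a Tmem110 (0.927), Zfp362 (0.905) and Csk (0.877). Dnmt3b was closest to Vgll3 (0.875), Fam20a (0.874) and 1700096K18Rik (0.856). Tet2 was closest to Gm4956 (0.930), Lrit1 (0.929) and Ss18l1 (0.904), and Tet3 to Cdk19 (0.933), Utp23 (0.900) and B3gntl1 (0.878). Tdg was closest to Dhx15 (0.896), Yme1l1 (0.858) and Zcchc17 (0.858), and Mbd2 to Sertad2 (0.903), Frs2 (0.881) and Neb (0.868). For the members other than Uhrf1, r without the 2 farthest mice ran from 0.584 (Yme1l1 with Tdg) to 0.894 (B3gntl1 with Tet3). No member was among the 3 closest genes of another.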

How the data were processed

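Ribosome-depleted total RNA of 12 livers was sequenced, with 1 library per mouse. The authors trimmed adapters, aligned the reads to mm10 with STAR and deposited its raw counts per gene, unstranded and for each strand, over GENCODE M15 (GRCm38). The STAR version is not given in the sources used here. STAR counts a read only where it maps to 1 place and to 1 gene, so that reads shared with pseudogenes or with an overlapping gene of the same strand are lost. The longest same-strand overlaps were those of 5430434F05Rik with Tet3 (3553 bases) and Gm48353 with Tet1 (1871 bases). Dnmt3c, a protein-coding gene, matches 1434 bases of the Dnmt3b transcript at 93.9% identity. How many reads these 3 members lost was not tested. The reverse-strand counts were used, which held 92.7 to 95.8% of the reads assigned on either strand. Of 52636 gene identifiers, 52489 matched GENCODE M21 of the same build, which gave symbols, lengths and coordinates. Promoters came from RefSeq.

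Genes averaging 12 or more reads per library were fitted with edgeR 4.0.16 in R 4.3.3 (TMM scaling, quasi-likelihood test of diet over all 12 mice), with Benjamini-Hochberg adjustment over all tested genes. This replaces the authors' DESeq2, which was run as an alternative (1.42.0), with the authors' DEG thresholds. In it, 2 default steps were switched off: independent filtering, and the Cook's distance check, which voids p for genes with an outlying sample. Standard errors are the log2-fold change divided by the square root of F. CPM uses the TMM-scaled library size, and log2 CPM a prior count of 2. The scripts were tested on simulated data. Other alternatives were limma 3.58.1 voom with sample weights, DESeq2 size factors, no filter, unstranded counts, a term for the set of mice, each set alone, a replicate block, and leaving out each mouse. Permutation tests were exact and two-sided (SciPy 1.17.1). Similar transcripts were found with BLAST 2.17.0 (at least 90% identity over 300 bases).

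Groups came from the labels. Which mice had a recorded liver weight was read from the study's supplementary figure and is not in the labels. The members, the gene lists and the tests were chosen with earlier results of these data known. The text names every member, the 2 genes of each pathway list with the smallest p, the 3 genes most like each of the 8 members that passed the filter, and the 2 most abundant genes of each marker and proliferation list. Beyond this rule it names the partners below the filter, the 5 proliferation genes at an unadjusted edgeR p below 0.05, and leukocyte markers at 0 in a library. Clec4f and Hnf4a were named for an unadjusted edgeR p below 0.05, and not every marker below it is named.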

Additional observations from a re-analysis of the deposited data

Results flagged for a closer look

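The Uhrf1 level of VDD2, 4.59 CPM, stood apart from the other 5 VDD-F1 mice, which had 0.757 to 1.998 CPM. Its gap to the nearest mouse was 0.677 of the range of the group, above Dixon's 95% critical value for 6 samples. This was 1 of 18 groups of 6 mice tested over the 9 genes, and chance alone marks about 1 in 20. VDD2 also had the highest mean of the 14 proliferation genes, 3.37 on the log2 CPM scale, and the highest sums of bile duct, leukocyte and stellate cell markers, and their part in its Uhrf1 level was not tested.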

How the results depend on the processing

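Uhrf1 was higher in VDD-F1, with an unadjusted p below 0.05, under the main settings and all 22 alternatives, with log2-fold changes of 1.30 to 3.84 (1.45 to 2.54 without 1 mouse) and adjusted p of 0.0414 to 0.999 (0.0806 and 0.999 within the sets of mice). The alternatives reuse the same libraries, so that their agreement is not independent support. In the filtered fits Uhrf1 entered only through VDD-F1. DESeq2 called 1 member against 0, and all other alternatives called 0 members and 0 of the wider pathway genes. Over all genes the count of DEGs was far from stable: against 5, it was 254 with DESeq2, 70 without the filter, 252 with voom, 21 with the set of mice as a term, 536 in the recorded set, 0 in the other, and 0 to 260 without 1 mouse, while DESeq2 size factors and unstranded counts gave 4 each. It was 0 without VDD4, VDD5, VDD6, VDS3, VDS4 or VDS5, 1 without VDS6, 7 without VDD2, 12 without VDS2, 93 without VDD3 and 260 without VDD1. The interaction of diet and set passed for 138 genes with DESeq2 against 11. The sign of small changes turned for Dnmt3a (-0.070 in the recorded set, -0.043 to 0.11 without 1 mouse), Dnmt3b (0.62 with voom, 0.78 in the recorded set, 0.11 with the replicate block, 0.15 in the permutation test, -0.21 to 0.23 without 1 mouse), Tet2 (-0.047 in the other set, -0.0075 in the permutation test, -0.068 to 0.11 without 1 mouse), Tet3 (0.0096 with the set as a term, 0.19 in the other set, -0.11 to 0.067 without 1 mouse) and Tdg (-0.23 in the other set, -0.074 to 0.097 without 1 mouse). The causes were not tested. The replicate block gave 17 DEGs, but the numbers did not pair the mice: deviations of same-numbered mice correlated at -0.076 to 0.103, and 0 mice correlated best with their own number. Depth limited Uhrf1 and Tet1, with 0 to 88 and 0 to 25 reads a library.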
